A study of Mus musculus with 23 samples.

Results

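Microglia, the resident immune cells of the brain, were followed here through 9 genes that mark them: *C1qa*, *C1qb* and *C1qc*, which encode the 3 chains of complement C1q; *Trem2* and *Tyrobp*, a surface receptor and the adaptor through which it signals; *Cx3cr1* and *P2ry12*, receptors for the neuronal chemokine fractalkine and for ADP; *Csf1r*, the receptor for the growth factors on which microglia depend; and *Aif1*, which encodes the actin-binding protein Iba1. The genes were chosen by name, and every probe carrying their symbols was read in each of the 6 groups of tissue and genotype. Of the 9 genes, 8 had a probe, and these genes had 10 of the 25697 probes on the array. No probe of the annotation used here carried the symbol *Csf1r*, so its level is not analysed here.

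C1q is the recognition unit of the classical complement pathway. In the brain it is made mainly by microglia, and it is known for tagging synapses for removal. Each arm of the protein joins an A, a B and a C chain, and the genes of the chains are usually expressed together. *Cx3cr1* and *P2ry12* are known as genes of surveying microglia that fall when microglia become activated, whereas *Trem2* and *Tyrobp* are needed for microglia to take on a phagocytic state.

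The arrays compared naive male mice lacking *Bhlhe40*, a transcriptional repressor that binds class B E-boxes (CACGTG), with wild-type (WT) mice, both on the C57BL/6 background and 3 to 5 months old. The KO mice carry the null allele in every cell and had been backcrossed into C57Bl/6. All animals, WT included, were fasted overnight before the brain was removed. Hippocampus, cortex and cerebellum came from the same 4 WT and 4 *Bhlhe40* KO mice, which gave 4 arrays in each group except WT cerebellum with 3, from which the authors had removed a sample as an outlier. The question for these genes was whether the loss of *Bhlhe40* changed them, and in which tissue.

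Levels in this report are log2 signals that were Z normalized within each array and put back on a common log2 scale, so a difference of 1 is a 2-fold change. A probe was called detected at a detection p under 0.05. Between 50.9% and 55.5% of all probes were detected on an array, and the lowest detected probe of an array lay at a level of 7.51 to 7.62. The probe for *Bhlhe40*, ILMN_1249378, read signals of 2634 to 4633 on WT arrays and 210.3 to 485.8 on KO arrays, in accord with every genotype label. The 5 probes of cerebellar neuron markers had a summed linear level of 48957 to 65728 on cerebellar arrays and of 1518 to 2597 on the others. Markers of the choroid plexus, the secretory epithelium of the ventricles, moved with genotype. Of 13 such probes tested, 13 rose in KO hippocampus and 12 in KO cerebellum, while 0 of 4 were called in cortex. Of all probes tested, 6.59% were higher in KO hippocampus and 18.5% in KO cerebellum. In KO cortex 0.106% were higher and 0.0847% lower.

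Of the 10 member probes, 9 were detected on at least 19 of the 23 arrays. The other, *Aif1* probe ILMN_1218123, was detected on 0 of 23 arrays at levels of 7.11 to 7.29 and was not tested. *C1qb*, *C1qc* and *C1qa* lie side by side on chromosome 4, in that order between *Gm31536* and *Epha8*. *Trem2* and *Aif1* are on chromosome 17, *P2ry12* on chromosome 3, *Tyrobp* on chromosome 7 and *Cx3cr1* on chromosome 9.

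Promoter windows of the 250 bases before the start of the gene were read from RefSeq (GRCm38.p6) for 6 of the 9 genes: *C1qb*, *C1qc*, *Trem2*, *Cx3cr1*, *Aif1* and *P2ry12*. They were searched on both strands for CACGTG, the E-box bound by *Bhlhe40*, and for GAGGAAG, a sequence bound by PU.1. Macrophages and microglia depend on this transcription factor. Shorter or other forms of the PU.1 site were not searched for, so a window without GAGGAAG may still hold such a site. No window of these genes held both. CACGTG was found in 1 of the 6 windows, 228 bases before the start of *P2ry12*, and in 6.02% of all 32851 windows of that length. GAGGAAG was found in 2 of the 6 windows, 194 bases before the start of *C1qc* and 41 before that of *Trem2*, and in 10.6% of all windows. The windows below are those of the 3 genes with the largest differences between genotypes in cerebellum and that of *P2ry12*, which holds the E-box. Each is written 5′ to 3′ on the strand of its gene with the motif in capitals. In *C1qc* and *Trem2* the match was on the opposite strand, and a match does not say that a factor was bound there.
*C1qc* (GRCm38.p6, chr4:136892915-136893164, minus strand): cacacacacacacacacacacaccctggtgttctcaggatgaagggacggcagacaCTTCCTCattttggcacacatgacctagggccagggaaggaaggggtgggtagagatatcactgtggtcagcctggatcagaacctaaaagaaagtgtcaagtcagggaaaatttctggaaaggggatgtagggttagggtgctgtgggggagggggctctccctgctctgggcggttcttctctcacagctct
*C1qb* (GRCm38.p6, chr4:136886201-136886450, minus strand): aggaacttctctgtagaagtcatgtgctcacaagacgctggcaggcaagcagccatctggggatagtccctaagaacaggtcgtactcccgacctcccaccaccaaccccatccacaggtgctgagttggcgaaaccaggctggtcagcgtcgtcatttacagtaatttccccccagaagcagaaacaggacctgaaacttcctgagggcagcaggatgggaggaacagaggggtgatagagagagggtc
*Trem2* (GRCm38.p6, chr17:48346151-48346400, plus strand): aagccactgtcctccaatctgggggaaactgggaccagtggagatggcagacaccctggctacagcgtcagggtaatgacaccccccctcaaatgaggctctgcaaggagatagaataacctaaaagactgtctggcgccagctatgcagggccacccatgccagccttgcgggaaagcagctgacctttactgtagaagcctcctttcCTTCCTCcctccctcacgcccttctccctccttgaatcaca
*P2ry12* (GRCm38.p6, chr3:59262986-59263235, minus strand): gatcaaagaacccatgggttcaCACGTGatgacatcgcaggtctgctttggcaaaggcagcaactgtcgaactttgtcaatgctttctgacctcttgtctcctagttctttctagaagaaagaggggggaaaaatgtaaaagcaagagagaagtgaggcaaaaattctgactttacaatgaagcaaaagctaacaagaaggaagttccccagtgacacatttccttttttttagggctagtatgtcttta

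In WT mice the microglial genes were lower in cerebellum than in both forebrain tissues. Against hippocampus 8 of 9 member probes were lower and 0 higher, where 25.7% of the 15219 probes tested were lower and 26% higher. Against cortex the count was again 8 lower and 0 higher, where 23.6% of all probes were lower and 25.4% higher. The median difference of the 9 probes was -0.85 against hippocampus and -0.85 against cortex, and that of all probes was 0.01 in both. In bulk tissue, fewer cells of a type and less RNA per cell cannot be told apart. The share of all probes without overlap between WT tissues is not given here, so overlap between tissues below describes single probes.

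*Cx3cr1*, the fractalkine receptor, had the largest difference of the member probes. It read 10.39, 10.16, 10.15 and 10.10 in WT hippocampus, 10.00, 9.96, 9.94 and 9.67 in WT cortex and 8.71, 8.70 and 8.67 in WT cerebellum. Every cerebellar array lay below every forebrain array. On average it was 2.84-fold lower than in hippocampus (-1.51 in log2 units with a standard error of 0.11, adjusted p = 3.45e-13) and 2.30-fold lower than in cortex (-1.20, standard error 0.11, adjusted p = 7.24e-11). *P2ry12*, the ADP receptor of surveying microglia, read 8.69 to 9.05 in WT hippocampus, 8.74 to 9.33 in WT cortex and 7.83 to 8.0 in WT cerebellum. Its level was 1.93-fold lower in cerebellum than in hippocampus (-0.95, standard error 0.13) and 2.16-fold lower than in cortex (-1.11, standard error 0.13).

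The C1q genes showed the same order of tissues. *C1qc*, the C chain, read 9.97 to 10.20 in WT hippocampus, 9.62 to 10.40 in WT cortex and 9.12, 8.74 and 8.74 in WT cerebellum, 2.28-fold lower than in hippocampus (-1.19, standard error 0.12, adjusted p = 1.22e-09). *C1qb*, the B chain, read 10.06 to 10.20, 9.84 to 10.47 and 9.42, 8.99 and 8.74 in the same order, 2.13-fold lower in cerebellum than in hippocampus (-1.09, standard error 0.13). *C1qa*, the A chain, was 1.65-fold lower (-0.72, standard error 0.12), with cerebellar levels of 8.32, 7.91 and 8.02. For all 3 chains the cerebellar arrays lay below the forebrain arrays without overlap, and replicate 1 was the highest of the WT cerebellar arrays. Against cortex the differences were -1.11 for *C1qc*, -1.02 for *C1qb* and -0.66 for *C1qa*.

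*Trem2* followed with differences of -0.85 (standard error 0.11) from both tissues, from 8.47 to 8.91 in WT hippocampus and 8.61 to 8.83 in WT cortex to 7.76 to 7.97 in WT cerebellum. *Tyrobp*, its adaptor, was lower than in hippocampus by a smaller difference (-0.39, standard error 0.12, adjusted p = 0.00661), and its difference from cortex was -0.25 (95% confidence interval -0.49 to -0.0038, adjusted p = 0.0871), which passed the threshold in a fit of the WT arrays alone (adjusted p = 0.0312), without WT cortex replicate 1 (adjusted p = 0.0478) and without WT cortex replicate 2 (adjusted p = 0.0462). It was detected on 2 of the 3 WT cerebellar arrays. The 2 tested probes of *Aif1* gave unequal values. Probe ILMN_1212938 was not well above background on any of the 3 WT cerebellar arrays, so only a bound can be given: it was at least 1.23-fold lower than in hippocampus (adjusted p = 0.000543) and at least 1.20-fold lower than in cortex (adjusted p = 0.00149). These bounds set the mean of the brighter group against the lowest detected level of each dim array. Probe ILMN_2804487 was detected on all of those arrays and differed by -0.16 from hippocampus (adjusted p = 0.0722) and by -0.24 from cortex (adjusted p = 0.00803), the latter with adjusted p = 0.0574 without WT cerebellum replicate 3.

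Hippocampus and cortex of WT mice differed in 1 of the 9 member probes, where 12.1% of all probes were higher in hippocampus and 10.9% lower. *Cx3cr1* was 1.24-fold higher in hippocampus (0.31, standard error 0.10, adjusted p = 0.0291), with no overlap between the arrays of both tissues. This call was lost without WT hippocampus replicate 1 (0.24, adjusted p = 0.126), without WT cortex replicate 4 (0.23, adjusted p = 0.138) and after normexp background correction (0.34, adjusted p = 0.0639). The other 8 probes differed by -0.16 (*P2ry12*) to 0.14 (*Tyrobp*), and the levels of both tissues overlapped in each.

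Other genes of microglia showed the cerebellar difference as well. Of 29 tested probes from a list of 39 further microglial genes, 25 were lower in WT cerebellum than in WT hippocampus and 1 was higher (median -0.46), and 24 were lower and 2 higher than in cortex (median -0.43). Of all probes 25.7% were lower and 26% higher in cerebellum than in hippocampus, and 23.6% lower and 25.4% higher than in cortex. Between hippocampus and cortex 5 of the 29 were higher in hippocampus and 0 lower, where 12.1% of all probes were higher and 10.9% lower. The summed linear level of the 29 probes was 9632 to 10268 in WT cerebellum, 14083 to 14904 in WT hippocampus and 13138 to 14227 in WT cortex. Of 7 tested probes of macrophages of the brain's borders, 0 were lower than in hippocampus and 1 was higher, and 1 was lower and 3 were higher than in cortex. The same shares of all probes stand beside these counts. Background correction by normexp with quantile normalization gave larger differences of cerebellum. Those over 1.5 times the values above were, from hippocampus, -1.59 for *P2ry12*, -1.52 for *Trem2*, -1.15 for *C1qa*, -1.0 for *Tyrobp* and -1.19 for *Aif1* probe ILMN_1212938. From cortex they were -1.85 for *P2ry12*, -1.57 for *Trem2*, -1.12 for *C1qa*, -1.11 for *Aif1* probe ILMN_1212938 and -0.55 for *Aif1* probe ILMN_2804487.

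**Figure D1:**
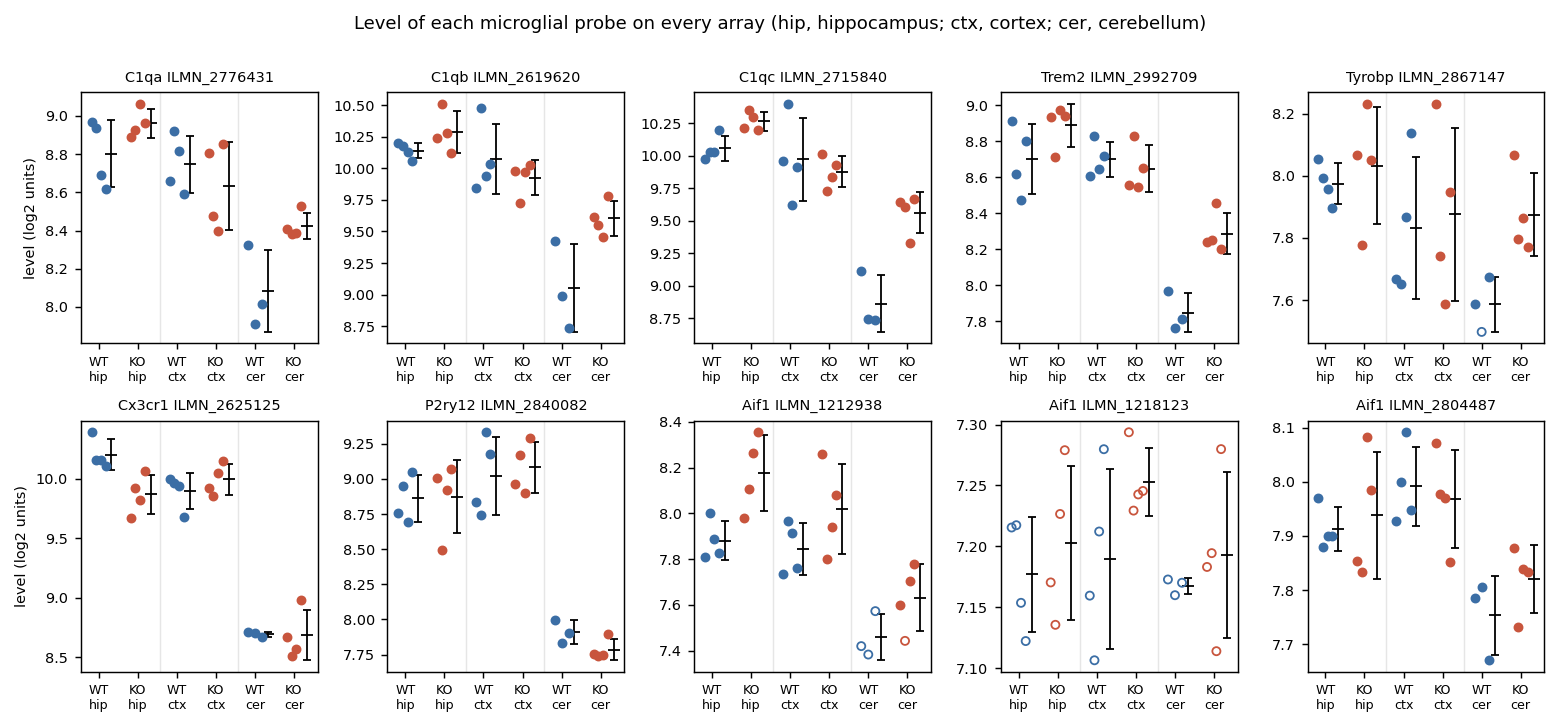
Level of each of the 10 member probes on every array; the y axis gives the level in log2 units and the x axis the 6 groups, with WT in blue and Bhlhe40 KO in red. Filled points are detected arrays, open points undetected ones, and black bars are the mean and SD of the 3 or 4 arrays of a group; Cx3cr1 and P2ry12 lie lowest in both cerebellar groups, and the C1q genes and Trem2 are higher in KO than in WT cerebellum.

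**Figure D2:**
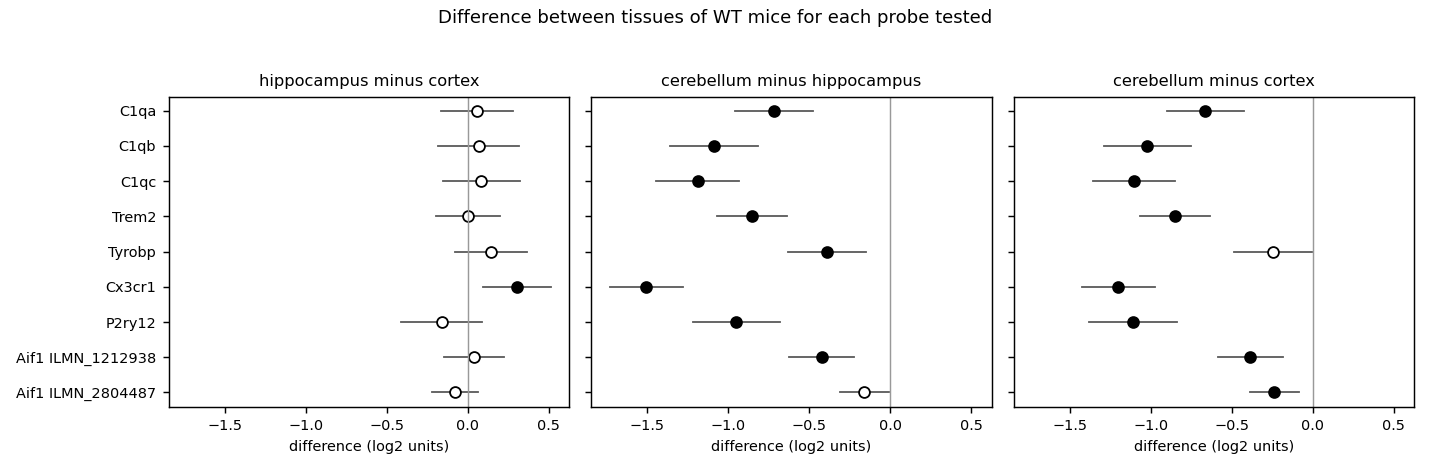
Differences between tissues of WT mice in log2 units (x axis) for the 9 member probes tested (y axis), with lines for the 95% confidence interval and filled points for an adjusted p under 0.05. Points in the cerebellum panels lie below 0, from -1.51 for Cx3cr1 to -0.16 for Aif1 probe ILMN_2804487. Aif1 probe ILMN_1212938 was not detected on any WT cerebellar array, so its point there is the fitted value and not a bound.

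In the cerebellum of *Bhlhe40* KO mice the 3 C1q genes, *Trem2* and *Tyrobp* rose, while *Cx3cr1* and *P2ry12* were not called. Of 9 member probes 5 were higher and 0 lower, where 18.5% of the 13800 probes tested were higher and 15.3% lower. The KO and WT arrays did not overlap in these 5 probes, and they did not overlap in 38.2% of all probes. The median difference of the member probes was 0.29, against 0.01 for all probes.

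*C1qc* read 9.12, 8.74 and 8.74 in WT cerebellum and 9.65, 9.61, 9.33 and 9.67 in KO cerebellum. All KO arrays exceeded the highest WT array, and the level was 1.62-fold higher (0.70, standard error 0.12, adjusted p = 0.000209). *C1qb* read 9.42, 8.99 and 8.74 in WT and 9.62, 9.55, 9.46 and 9.78 in KO, 1.47-fold higher (0.55, standard error 0.14, adjusted p = 0.00343). Here the lowest KO array lay just above WT replicate 1. *C1qa* read 8.32, 7.91 and 8.02 in WT and 8.41, 8.38, 8.39 and 8.53 in KO, 1.27-fold higher (0.34, standard error 0.10, adjusted p = 0.0142). The call for *C1qa* was lost without WT cerebellum replicate 2 (0.26, adjusted p = 0.114) and without replicate 3 (0.31, adjusted p = 0.0591).

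*Trem2*, the lipid-sensing receptor, read 7.97, 7.76 and 7.81 in WT cerebellum and 8.24, 8.25, 8.46 and 8.20 in KO cerebellum, 1.36-fold higher (0.44, standard error 0.09, adjusted p = 0.000903). *Tyrobp* read 7.59, 7.50 and 7.68 in WT and 8.07, 7.80, 7.87 and 7.77 in KO, 1.22-fold higher (0.29, standard error 0.08, adjusted p = 0.00715). In both genes the KO arrays lay above the WT arrays. Without WT cerebellum replicate 2 the adjusted p of *Tyrobp* was 0.0568 (0.24), and in a fit of all 6 groups it was 0.0634. After normexp correction the differences were 0.81 for *Trem2*, 0.74 for *Tyrobp* and 0.53 for *C1qa*, each over 1.5 times the value above, and an unmoderated test called 2 of the 5 probes, *C1qc* and *Trem2*.

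The receptors of surveying microglia were not called in cerebellum. *Cx3cr1* read 8.71, 8.70 and 8.67 in WT cerebellum and 8.67, 8.51, 8.57 and 8.98 in KO cerebellum, a difference of -0.01 (95% confidence interval -0.25 to 0.24, adjusted p = 0.966). *P2ry12* read 8.0, 7.83 and 7.90 in WT and 7.75, 7.74, 7.75 and 7.90 in KO, a difference of -0.13 (-0.28 to 0.03, adjusted p = 0.204). With normexp correction the difference of *P2ry12* was larger, -0.42 (adjusted p = 0.0890), and that of *Cx3cr1* was -0.13 (adjusted p = 0.598). Neither was called. In each gene the KO arrays overlapped the WT arrays. *P2ry12* lay little above the lowest detected level of the KO cerebellar arrays (7.58 to 7.62), which limits the fall that can be seen. *Aif1* probe ILMN_1212938, detected on 0 of 3 WT and 3 of 4 KO arrays, was not called (adjusted p = 0.0776). Its KO mean was 1.03-fold above the mean lowest detected level of the WT arrays, which sets no minimum for the difference. After normexp correction the probe differed by 0.49 (adjusted p = 0.115). Its adjusted p was 0.0423 without WT cerebellum replicate 3 and 0.0148 without KO cerebellum replicate 2. *Aif1* probe ILMN_2804487 differed by 0.07 (-0.08 to 0.21, adjusted p = 0.501).

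Choroid plexus markers moved with these calls. Their 13 probes had a mean level of 8.56 to 9.10 on WT and of 9.49 to 9.92 on KO cerebellar arrays, and a summed linear level of 20193 to 33243 and of 38598 to 59485. The mean levels of both genotypes did not overlap, so genotype and these markers cannot be told apart in cerebellum. With the mean level as a covariate 0 of 9 member probes and 145 of all 13800 probes were called. The difference of *C1qc* was then 0.70 (standard error 0.32, adjusted p = 0.340), and that of *C1qb* was 0.16 (standard error 0.33, adjusted p = 0.875). *C1qa* then differed by 0.31, *Trem2* by 0.34 and *Tyrobp* by 0.32. Of 3 probes of red blood cells 2 rose in KO cerebellum, where 18.5% of all probes were higher. Their summed levels were 6699 to 7549 in WT and 8044 to 10795 in KO. The 6 probes of border macrophages gave 0 calls (summed level 1958 to 2313 in WT and 2066 to 2603 in KO). The part of red blood cells and border macrophages in the differences was not tested. Of 16 probes of blood leukocytes 0 passed the detection filter in cerebellum.

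**Figure D3:**
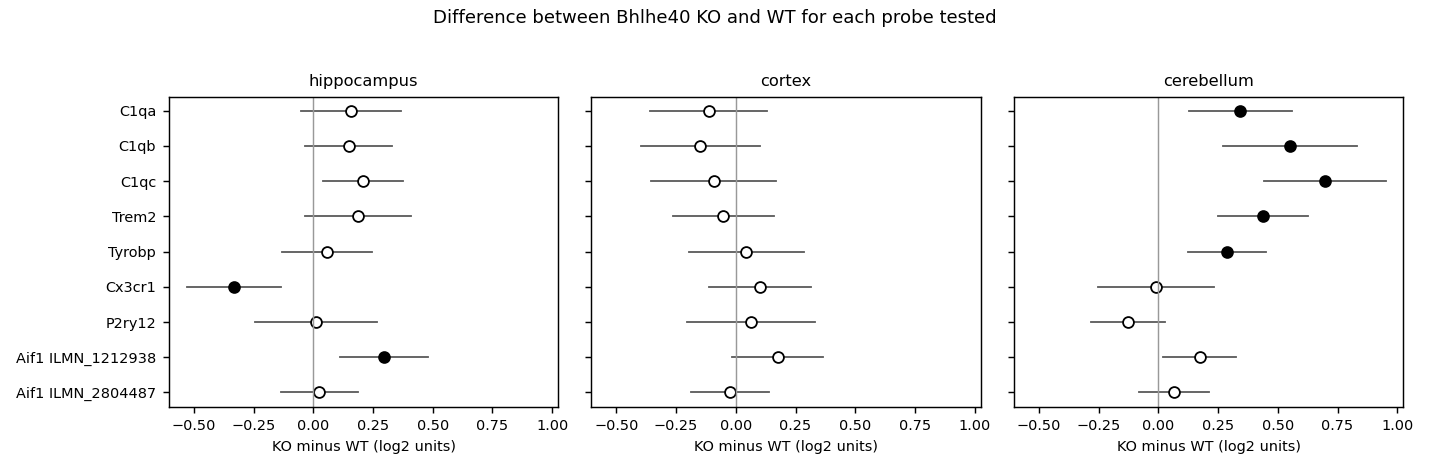
Difference between Bhlhe40 KO and WT in log2 units (x axis) for the 9 member probes tested (y axis) in each tissue, with lines for the 95% confidence interval and filled points for an adjusted p under 0.05. In cerebellum 5 filled points lie between 0.29 and 0.70, in cortex none is filled, and in hippocampus Cx3cr1 lies at -0.33 and Aif1 probe ILMN_1212938 at 0.30.

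In KO hippocampus 1 of 9 member probes was lower and 1 higher. Of the 14369 probes tested, 4.72% were lower, 6.59% were higher and 16.4% had arrays that did not overlap between genotypes. *Cx3cr1* read 10.39, 10.16, 10.15 and 10.10 in WT and 9.67, 9.92, 9.82 and 10.06 in KO hippocampus. All KO arrays lay below all WT arrays, the 1 member probe without overlap, and the level was 1.26-fold lower (-0.33, standard error 0.09, adjusted p = 0.0285). The call was lost on leaving out WT replicate 1 (-0.27, adjusted p = 0.0973), WT replicate 4 (adjusted p = 0.0538), KO replicate 1 (-0.27, adjusted p = 0.0815) or KO replicate 3 (adjusted p = 0.0793), and with an unmoderated test (adjusted p = 0.139).

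*Aif1* probe ILMN_1212938 read 7.81, 8.0, 7.89 and 7.83 in WT and 7.98, 8.11, 8.27 and 8.35 in KO hippocampus, 1.23-fold higher (0.30, standard error 0.09, adjusted p = 0.0378). The lowest KO array lay below the highest WT array. Probe ILMN_2804487 of the same gene, detected on the same arrays, differed by 0.03 (-0.13 to 0.19, adjusted p = 0.864), so the 2 probes of *Aif1* disagreed. The call for the first was lost on leaving out any of 3 WT arrays, replicates 1, 3 and 4 (adjusted p = 0.0954, 0.0671 and 0.112), or of 2 KO arrays, replicates 3 and 4 (adjusted p = 0.111 and 0.0943), without the detection filter (adjusted p = 0.0566) and with an unmoderated test (adjusted p = 0.141). After normexp correction the difference was 0.59 (adjusted p = 0.0345).

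The other 7 probes were not called in hippocampus. *C1qc* was 9.97 to 10.20 in WT and 10.19 to 10.35 in KO hippocampus, a difference of 0.21 (0.04 to 0.37, adjusted p = 0.0937). *C1qb* differed by 0.15 (-0.03 to 0.33), *C1qa* by 0.16 (-0.05 to 0.37) and *Trem2* by 0.19 (-0.04 to 0.41). *Tyrobp* differed by 0.06 and *P2ry12* by 0.01, and the arrays of both genotypes overlapped in all 7. The median of the 9 probes was 0.15, against 0.00084 for all probes. Choroid plexus markers had a mean level of 7.77 to 9.48 on WT and 9.06 to 10.87 on KO hippocampal arrays (summed level 3366 to 49842 and 28885 to 62295). With this level as a covariate 0 of 9 member probes and 20 of all 14369 probes were called. *Cx3cr1* then differed by -0.27 (adjusted p = 0.381) and *Aif1* probe ILMN_1212938 by 0.33 (adjusted p = 0.265). The part of these markers in the differences was not tested further.

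In cortex 0 of 9 member probes were called, where 0.106% of the 14163 probes tested were higher in KO, 0.0847% lower and 4.17% without overlap. The differences ran from -0.15 for *C1qb* to 0.18 for *Aif1* probe ILMN_1212938, 5 of 9 were below 0, and the arrays of both genotypes overlapped in every probe. *C1qc* read 9.96, 10.40, 9.62 and 9.91 in WT cortex and 10.01, 9.73, 9.84 and 9.93 in KO cortex, a difference of -0.09 (-0.36 to 0.17, adjusted p = 0.85). *Cx3cr1* read 9.67 to 10.00 in WT and 9.86 to 10.15 in KO cortex, a difference of 0.10 (-0.11 to 0.31, adjusted p = 0.802). At an unadjusted p under 0.05 the count of member probes in cortex was again 0. The share of all probes at that threshold is not given here, so this count says nothing about these genes alone.

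The KO differences of the C1q genes and *Trem2* were unequal in cortex and cerebellum. The difference in cortex minus that in cerebellum was called for 4 member probes, where 26.5% of the 15219 probes were called in either direction. It was -0.79 for *C1qc* (standard error 0.17, adjusted p = 0.00112), -0.70 for *C1qb* (standard error 0.18, adjusted p = 0.00486), -0.49 for *Trem2* (standard error 0.14, adjusted p = 0.0113) and -0.46 for *C1qa* (standard error 0.16, adjusted p = 0.0336). The call for *C1qa* was lost on leaving out any of 7 arrays, WT cortex replicate 2 or 3, KO cortex replicate 2 or 3, WT cerebellum replicate 2 or 3 or KO cerebellum replicate 4 (adjusted p = 0.0566 to 0.128), and with quantile normalization (adjusted p = 0.0651). For *Cx3cr1* the same difference was 0.11 (-0.20 to 0.42) and for *P2ry12* it was 0.19 (-0.18 to 0.56), neither called.

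Between hippocampus and cerebellum 0 of 9 KO differences were called as unequal, where 1.29% of all probes were. *C1qc* came nearest (-0.49, 95% confidence interval -0.84 to -0.14, adjusted p = 0.145), with an adjusted p of 0.0499 without WT cerebellum replicate 1. Between hippocampus and cortex 0 of 9 were called, where 3.85% of all probes were. *Cx3cr1* differed by -0.43 there (-0.73 to -0.14, adjusted p = 0.0748), with an adjusted p of 0.0492 after quantile normalization.

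The group means give the same values from the side of the tissues. The mean level of *C1qc* in cerebellum minus that in cortex was -1.11 in WT and -0.32 in KO mice. For *C1qb* these differences were -1.02 and -0.32, and for *Trem2* they were -0.85 and -0.36. For *Cx3cr1* they were -1.20 and -1.31, and for *P2ry12* they were -1.11 and -1.30. For each of these 5 genes both cerebellar groups had the lowest 2 means of the 6 groups. Among the other 4 groups the comparisons made here called *Cx3cr1* alone of these 5 genes, higher in WT hippocampus than in KO hippocampus and WT cortex.

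Across the 23 arrays the C1q probes varied together. Pearson's r was 0.96 between *C1qb* and *C1qc*, 0.91 between *C1qa* and *C1qb* and 0.89 between *C1qa* and *C1qc*, much of which the tissues and genotypes share. After the mean of each group was subtracted r was 0.76, 0.57 and 0.40. Against *C1qb* the values left after subtraction gave r = 0.02 for *Trem2*, 0.29 for *Cx3cr1*, -0.30 for *P2ry12* and -0.15 for *Tyrobp*. In the same order r was 0.22, 0.43, 0.11 and 0.32 against *C1qa* and 0.04, 0.15, -0.35 and -0.10 against *C1qc*. These values describe 23 arrays from 8 mice, 3 tissues of a mouse among them, and no test was made of them.

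**Figure D4:**
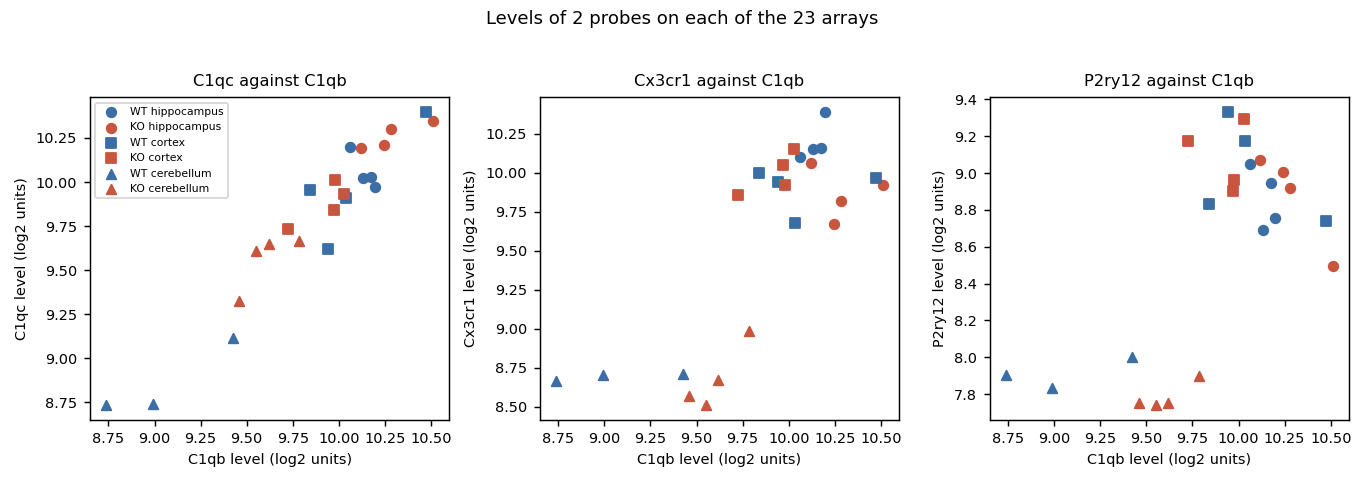
Levels in log2 units of C1qc, Cx3cr1 and P2ry12 (y axes) against C1qb (x axes), with a point for each of the 23 arrays, circles for hippocampus, squares for cortex and triangles for cerebellum, WT in blue and KO in red. C1qc rises with C1qb over all groups (r = 0.96), whereas the KO cerebellar arrays are shifted to higher C1qb while their Cx3cr1 and P2ry12 levels overlap those of the WT cerebellar arrays.

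Of 11821 probes detected on at least 18 arrays, those whose level was most like the mean of the 3 C1q probes were *Gstm5* (r = 0.97), *Anxa11* (r = 0.96), *Eri3* and *Col4a2* (r = 0.95), then *Rapgefl1*, *Tceal6*, *Nat14*, *Syngr3*, *Trmt61a* and *Chchd6*. *Gstm5* encodes a glutathione transferase and *Col4a2* a chain of the collagen of basement membranes. After the group means were subtracted the leading genes were *Nos3* (r = 0.89), the endothelial nitric oxide synthase, *Cebpb* (r = 0.85), a transcription factor of myeloid and other cells, *Tsc22d4* (r = 0.84), *Med27* and *Col4a2* (r = 0.82), then *Rbfa*, *Phlda3*, *Tamm41*, *Rpl31* and *Smyd2*. *Col4a2* was in both sets. The 10 genes of each set were the highest of many, and the arrays share mice and groups.

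Genes with related roles were followed by lists. Of 28 tested probes of the further microglial genes, 3 were higher and 2 lower in KO hippocampus (median 0.04), where 6.59% of all probes were higher and 4.72% lower. These were *Rgs10* (0.52), a regulator of G protein signalling, *Olfml3* (0.36) and *Ltc4s* (0.56), the leukotriene C4 synthase, against *P2ry6* (-0.32), a receptor for UDP, and *Laptm5* (-0.31), a lysosomal membrane protein. In KO cerebellum 5 of 22 were higher and 2 lower (median 0.08), a share near that of all probes, of which 18.5% were higher and 15.3% lower. *Rgs10* read 9.39 to 9.76 in WT and 10.16 to 10.70 in KO cerebellum (0.85, standard error 0.12, adjusted p = 2.27e-05), *Olfml3* rose by 0.50, *Fcer1g*, which encodes a signalling chain of Fc receptors, by 0.41, *Selplg* by 0.36 and *Ltc4s* by 0.31. *Laptm5* read 10.61 to 10.82 in WT and 10.13 to 10.19 in KO cerebellum (-0.58, standard error 0.09, adjusted p = 7.46e-05), and *Itgb5*, an integrin chain, differed by -0.41. *Ltc4s* was detected on 2 of 3 WT cerebellar arrays (7.55 to 7.68), close to the lowest detected level. The summed level of the list was 9632 to 10268 in WT and 9551 to 10384 in KO.

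Other complement genes were followed from a list of 44. Of 17 tested probes 2 were higher in KO hippocampus and 0 lower, *Cd59a* (0.87, standard error 0.18, adjusted p = 0.00832) and *Cd59b* (0.50). Both encode CD59, a surface inhibitor of the membrane attack complex. Of all probes 6.59% were higher there. In KO cerebellum 3 of 16 were higher and 0 lower: *Cd59a* (0.91, standard error 0.10, adjusted p = 2.97e-06), *Cd59b* (0.73) and *C1qbp* (0.76), which encodes a mitochondrial protein that also binds C1q. This count is at the share of all probes, of which 18.5% were higher. *Cd59a* and *Cd59b* are close copies, and their probes may share signal. In cortex 0 of 17 were called.

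Of the ligands and signalling partners of the 9 genes, 3 of 17 tested probes were higher in KO cerebellum and 1 lower, no more than the share of all probes (18.5% higher and 15.3% lower). *Gnai2*, an inhibitory G protein alpha subunit through which *P2ry12* and *Cx3cr1* signal, read 10.35 to 10.58 in WT and 11.29 to 11.46 in KO cerebellum (0.88, standard error 0.09, adjusted p = 1.11e-06). *Cx3cl1*, the ligand of *Cx3cr1* and made by neurons, rose by 0.61 (adjusted p = 0.000271) and *Csf2ra*, a chain of the GM-CSF receptor, by 0.36. *Nt5e*, which converts AMP to adenosine, differed by -0.35 (adjusted p = 0.0212). In KO hippocampus 2 of 18 were higher, *Csf2ra* (0.35) and *Gnai2* (0.39), and 0 lower, against 6.59% and 4.72% of all probes. In cortex 0 of 19 were called.

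Genes that activated microglia are known to raise were followed from a list of 37. In KO cerebellum 12 of 29 probes, of 9 genes, were higher and 1 lower (median 0.17), where 18.5% of all probes were higher and 15.3% lower. *Cd9* and *Cd63*, which encode tetraspanins, rose by 0.65 and by 0.43 to 0.67 over the 3 probes of *Cd63*. *B2m*, the light chain of MHC class I, rose by 0.48 and 0.55 in its 2 probes, *Lgals3bp* by 0.54 and *Cd74* by 0.38, while *Axl*, a receptor tyrosine kinase, fell by 0.30. In KO hippocampus, where 6.59% of all probes were higher and 4.72% lower, 8 of 30 probes, of 5 genes, were higher, led by *Lgals3bp* (0.56, standard error 0.11, adjusted p = 0.00816), and *Cd14* (-0.44), *Tlr2* (-0.35) and *Ch25h* (-0.32), genes of the response to bacterial products, were lower. Some of these lay close to the lowest detected level. *Tlr2* was detected on 2 of 4 KO hippocampal arrays (7.48 to 7.65), and *Ch25h* read 7.59 to 7.82 there. *Cd74* was detected on 2 of 3 WT cerebellar arrays (7.58 to 7.80). Many genes of this list, *Cd9*, *Cd63* and *B2m* among them, are expressed by other brain cells as well. In cortex 0 of 22 were called. The list's summed level was 32526 to 35412 in WT and 35697 to 39528 in KO hippocampus and 33107 to 33408 in WT and 34002 to 39515 in KO cerebellum, and the choroid plexus markers given above moved with it.

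**Figure D5:**
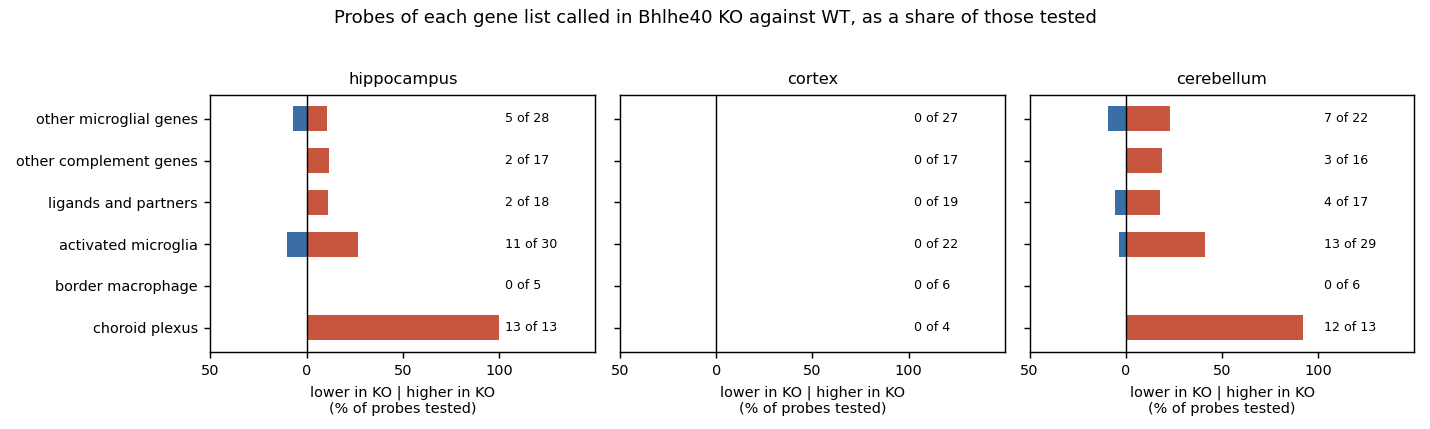
Share of the tested probes of 6 gene lists that were called in KO against WT, in percent (x axis), for each tissue; red bars to the right of 0 are higher and blue bars to the left lower in KO, and the numbers at the right are probes called of probes tested. Choroid plexus markers lead with 13 of 13 in hippocampus and 12 of 13 in cerebellum, and 0 probes of any of these lists were called in cortex.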

How the data were processed

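Gene expression was measured on Illumina mouse BeadChips in 23 arrays from 8 mice. The authors exported bead signals with GenomeStudio (2011.1), and the deposited tables hold a signal intensity and a detection p-value for each probe and array. The authors also deposited Z scores, from which Z scores computed here differed by at most 9.96e-05. Here log2 intensities were Z normalized within each array, multiplied by the mean array SD (1.57) and returned to the grand mean. Probes with a detection p under 0.05 in at least 3 arrays of a tissue were tested, KO against WT, with limma 3.58.1 in R 4.3.3 (lmFit, eBayes with trend). WT tissues and differences between KO differences were tested in a fit of all 6 groups with the mouse as a random block. P-values were adjusted by the Benjamini-Hochberg method over all probes tested, and calls are adjusted p under 0.05. Of 25697 probes, 23978 carried a symbol. Array files hold no depth, and precision rests on how many arrays a group has. Median signals ran from 164.4 to 267.9, and no 2 arrays were duplicates (highest r 0.997).

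The 9 genes and the gene lists were chosen with earlier results of these data known. The called gene with the smallest adjusted p in each direction in KO hippocampus and KO cerebellum was named by rule. This was done for the lists of further microglial genes, other complement genes, ligands and partners, and activated microglia. Genes so picked from lists of other cell types are not named here. The 10 genes most like C1q were named by rule as well. Other called genes were named after their values were seen. Alternatives were normexp correction with quantile normalization (neqc, offset 16), quantile normalization, the deposited Z scores, other detection filters, 1 probe a gene, the replicate number as a block, other sets of arrays in the fit, an unmoderated test, choroid plexus level as a covariate, the methods' call rule and leaving out each array. The fits were tested on simulated arrays with known differences in a seeded set of probes.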

Additional observations from a re-analysis of the deposited data

Results flagged for a closer look

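In 3 of the 45 sets of 4 or more arrays examined, 1 array lay far from the others of its group, where chance gives about 1 in 20. *C1qa* was 8.53 on KO cerebellum replicate 4, and the other 3 arrays were 8.38 to 8.41. *P2ry12* was 7.90 on the same array, and the others were 7.74 to 7.75. *Trem2* was 8.71 on KO hippocampus replicate 2, and the others were 8.93 to 8.97.

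The KO difference in cortex minus that in cerebellum passed the test for 4 of 9 member probes, where 26.5% of the 15219 probes tested passed it. It was -0.79 for *C1qc*, -0.70 for *C1qb*, -0.49 for *Trem2* and -0.46 for *C1qa*. The call for *C1qa* was lost in 8 of 23 alternatives.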

How the results depend on the processing

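The 28 called single results were recomputed under 480 alternatives in all. The call was kept in 442 and lost in 38, the direction was reversed in 0, and 18 results never lost it. In hippocampus the count of member probes called in KO against WT was 2. It was 1 without the detection filter, 0 with an unmoderated test, 0 with the choroid plexus covariate, 3 under the call rule of the methods (p under 0.05, adjusted p under 0.3) and 0 to 2 without single arrays. In cerebellum the count was 5. It was 3 of 4 probes tested with a detection p under 0.01 in every array, where fewer probes enter, 2 with an unmoderated test, 0 with the covariate, 6 under the call rule of the methods and 3 to 6 without single arrays (3 without WT cerebellum replicate 2). In cortex it was 0 throughout the arrays left out. The strict detection filter gave 4 of 4 tested probes in WT cerebellum against hippocampus and 4 of 4 against cortex, and leaving out single arrays gave 8 and 7 to 9. Between WT hippocampus and cortex the count of 1 became 0 with neqc and 0 to 1 without single arrays. For the KO difference in hippocampus minus cortex the count of 0 became 1 with quantile normalization and 1 under the call rule of the methods, and was 0 without any single array. For hippocampus minus cerebellum it became 3 under that rule and was 0 to 1 without single arrays, and for cortex minus cerebellum it was 3 to 4. Except for the strict filter, the cause of these changes was not tested. The count over all probes changes with the setting too. It is given below for some settings only, so these member counts cannot be set against it throughout.

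Over all probes tested, the count in hippocampus was 1625, with 20 in the unmoderated test, 20 with the covariate, 3993 under the call rule of the methods and 578 to 1832 without single arrays. In cortex it was 27, with 17 under the strict filter, 43 with the replicate block, 50 in the fit of 6 groups, 2 unmoderated, 126 under the methods' rule and 19 to 44 without single arrays. In cerebellum it was 4667, with 2497 unmoderated and 145 with the covariate. The replicate number as a block gave 2, 0 and 5 member probes in hippocampus, cortex and cerebellum. Arrays of the same number correlated in their deviations from the group means at -0.14 to 0.28 in hippocampus, -0.34 to -0.0031 in cortex and 0.02 to 0.15 in cerebellum. In cerebellum each WT array correlated most, among KO replicates 1 to 3, with that of its own number. In hippocampus this held for replicate 3 alone, and in cortex for none. As the correlations were low, the numbers were not taken to pair the mice. *Tyrobp* and *Aif1* lay close to the lowest detected level in WT cerebellum (7.55 to 7.62). *Trem2* (7.76 to 7.97 in WT cerebellum) and *P2ry12* (7.74 to 7.90 in KO cerebellum) lay little above it. This limits the size of a difference that can be seen there.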
